A study of Rattus norvegicus with 24 samples.

Results

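Lung mRNA was compared between Fischer-344 rats that inhaled 1000 ppm hexanal and rats that inhaled filtered clean air. The members of the comparison were chosen by their labels, and they were 12 of the 24 arrays of the series, namely 6 control rats (males 1, 2 and 3, females 21, 22 and 23) and 6 rats of the middle dose (males 11, 12 and 13, females 31, 32 and 33). All rats were wild-type animals of both sexes, 7 to 8 weeks of age when obtained. By their labels the groups differed only in the inhaled air, but their arrays also lay on different slides. The label protocol gives an exposure of 4 h per day on 5 days per week for 5 weeks and writes the doses as mg/m3, whereas the sample titles and the methods give ppm and the methods give 4 weeks, so the exact duration and unit were not settled. The remaining 12 arrays (600 and 1500 ppm) served to estimate the spread between rats and to define the genes that vary with heart muscle.

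Hexanal is a saturated aldehyde that forms when membrane lipids are oxidised and that also evaporates from wood, food and furnishings. Inhaled aldehydes first meet the airway lining, where ciliated cells move mucus outward and secretory cells (club and goblet cells) supply mucins, secretoglobins and antimicrobial proteins, and aldehyde dehydrogenases, aldehyde reductases and glutathione S-transferases convert or bind the aldehyde. Deeper in the lung, alveolar type I cells carry gas exchange, alveolar type II cells make surfactant and resident macrophages take up particles. The walls of the large pulmonary veins of rodents contain true heart muscle, so a piece of rat lung can carry cardiac transcripts in an amount that depends on how the piece was cut.

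Levels are given as the log2 processed signal of a probe minus the 75th percentile of its array, so 0 is the brightness of that percentile and 1 unit is a doubling. That percentile lay between 2317 and 3068 signal units on the control arrays and between 2387 and 3133 on the 1000 ppm arrays, and 77.8% to 81.0% and 76.2% to 81.8% of probes were well above background. No spot was saturated. Surfactant genes were bright in every rat (Sftpc from 7.35 to 8.04 over the 12 rats), as were the club cell gene Scgb1a1 and the alveolar type I gene Ager while the macrophage receptor gene Marco was not well above background in any of the 12. The 4 arrays of a slide were run together, and 0 of the 6 slides held both control and 1000 ppm rats, so slide and exposure cannot be told apart directly. A value with the slide as a block runs only through the 600 ppm rats, none of which shared a slide with both groups. Rat 6 lay with the control males and rat 26 with the control females. Rats 7, 8, 27 and 28 lay with the 1000 ppm rats 11, 12, 31 and 32. The 1000 ppm rats 13 and 33 shared slides only with 1500 ppm rats and add nothing to that difference, which thus rests on few rats. In that fit 15 of the 77 called genes named below kept their call. Because pieces of whole lung were measured, fewer cells of a type and less RNA per cell cannot be told apart.

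The smallest adjusted p-values were those of 2 genes of microtubule subunits, 1 chitinase gene and 1 unnamed probe, and the bases before start sites of both families are shown first because most tubulin genes share a promoter element that the leading chitinase genes lacked. The sequences are from RefSeq on the rat assembly GRCr8 and run 5′ to 3′ on the gene's strand up to the base before the start site. Capitals mark CCAAT, the letters bound by the NF-Y factor, and TATAAA, the TATA box, where either was found. Tubb4b lies on the minus strand (chr3:28438456-28438705) and Tubb5 on the plus strand (chr20:2917327-2917576).
Tubb4b: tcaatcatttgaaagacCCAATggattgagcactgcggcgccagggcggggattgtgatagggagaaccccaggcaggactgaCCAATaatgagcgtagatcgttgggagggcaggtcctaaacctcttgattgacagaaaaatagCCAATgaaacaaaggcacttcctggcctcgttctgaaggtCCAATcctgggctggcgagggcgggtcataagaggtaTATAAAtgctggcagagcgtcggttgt
Tubb5: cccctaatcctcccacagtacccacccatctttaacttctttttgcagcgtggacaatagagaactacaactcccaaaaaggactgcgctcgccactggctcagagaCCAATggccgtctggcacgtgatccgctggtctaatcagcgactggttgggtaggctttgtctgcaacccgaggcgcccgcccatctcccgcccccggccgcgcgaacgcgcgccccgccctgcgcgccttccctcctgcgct
The Tubb4b window held CCAAT 4 times, at 233, 167, 104 and 64 bases before the start, and TATAAA at 27 bases, whereas the Tubb5 window held a single CCAAT at 143 bases. Counting both strands, CCAAT was present within 250 bases before the start in 11 of 16 measured tubulin genes (68.8%) and in 34.3% of 27457 rat promoters, and TATAAA in 13.1% of all promoters. The 150 bases before the starts of Chial1 (minus strand, chr2:196565739-196565888) and Chia (plus strand, chr2:196302537-196302686) are shown for contrast.
Chial1: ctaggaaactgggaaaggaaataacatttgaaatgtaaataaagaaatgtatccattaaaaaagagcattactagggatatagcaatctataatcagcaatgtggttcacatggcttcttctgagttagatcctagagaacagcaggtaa
Chia: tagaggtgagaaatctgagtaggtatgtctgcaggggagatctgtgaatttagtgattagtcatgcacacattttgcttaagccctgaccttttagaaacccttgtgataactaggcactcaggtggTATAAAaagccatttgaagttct
Neither chitinase window held CCAAT, and Chia alone held TATAAA, at 23 bases before the start. Within 250 bases, CCAAT was present in 2 of 6 measured chitinase genes (33.3%), Chi3l1 and Chit1. That share is close to the 34.3% of all promoters, so most promoters lack it too. A match is a description of letters only, and binding was not measured.

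Over all genes the 1000 ppm lungs differed little from the control lungs, and most of the called differences were upward. Of 21255 genes or unnamed probes tested, 275 were called higher (1.29%) and 73 lower (0.343%) at 1000 ppm, 348 in all (1.64%), a call being a fold change of at least 1.5 with an unadjusted p under 0.05 in limma, the threshold of the study's own comparison. An unadjusted p under 0.05 alone was reached by 1135 upward (5.34%) and 775 downward (3.65%), 1910 in all (8.99%). After Benjamini-Hochberg adjustment over all genes, 4 remained under 0.05 (0.0188%), all higher. The median log2 difference was 0.00, with quartiles of -0.10 and 0.11, and 51.3% of genes had a difference above 0.

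The split between higher and lower calls depended on the scaling. Of the called genes 79.0% were higher with the 75th percentile scaling, 76.2% with median scaling and 69.8% with quantile normalization, but 18.2% after normexp background correction (73 higher, 328 lower) and 94.7% in the unscaled value table (539 higher, 30 lower). After normexp the median of all genes was -0.13 and that of the dimmest of 3 equal groups of genes -0.48, against 0.00 and 0.01 with the 75th percentile scaling, and 286 of the 328 lower calls were in that group, while the median of all genes was 0.11 in the unscaled table. The direction of the dimmest genes was therefore not settled over these scalings.

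Heart muscle transcripts varied strongly from rat to rat and were set apart. The 174 genes that track heart muscle were found in the 600 and 1500 ppm rats, which are not in the comparison, by a correlation of at least 0.8 with the heart muscle list, or were members of the muscle lists. Of these 174, 55 were called higher (31.6%) and 0 lower, and without them 220 genes were called higher (1.04%) and 73 lower (0.346%), which is 75.1% upward. With the mean of the heart list as a covariate, 159 were called higher (0.748%) and 61 lower (0.287%), and 64 of the 275 and 30 of the 73 kept their call. With the slide as a block, 194 were called higher (0.913%) and 134 lower (0.63%), 35 of the 275 and 17 of the 73 kept their call, and 270 and 69 kept their sign. Among the named genes the 15 that kept it were Tubb4b, Chial1, Chia, probe A_64_P138346, Steap1, Ccl12, Ltc4s, Acta1 and Cnn1 upward and Ddit4, Cebpd, Klf2, Jun, Sik1 and Rtp3 downward, and 0 of all genes had an adjusted p under 0.05. Leaving out control rat 2, 1000 ppm rat 31 or 1000 ppm rat 33 brought the 275 higher calls to 163, 169 and 147, and leaving out control rat 1 or control rat 3 brought the 73 lower calls to 121 and 162.

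**Figure D1:**
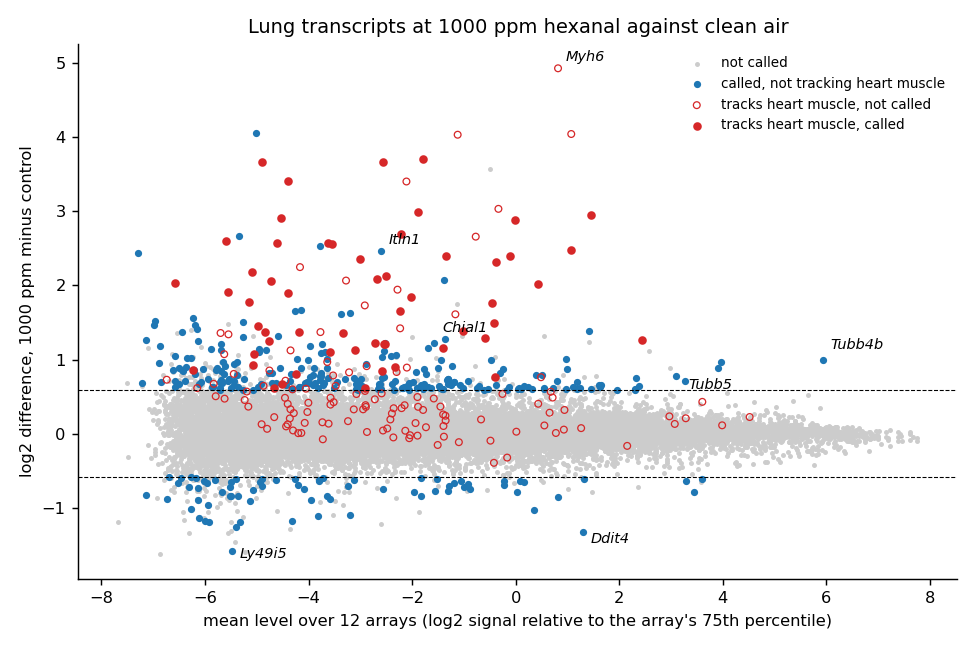
Log2 difference (1000 ppm minus control) of every tested gene or unnamed probe, with the heart-tracking genes marked apart from the rest. Tubb4b had a difference of 0.99 with an adjusted p of 1.66e-05 in limma. The heart-tracking gene Myh6 had a difference of 4.93 with an adjusted p of 0.577 in limma.

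Tubb4b, a beta-tubulin that is abundant in the axonemes of ciliated cells, showed the clearest rise of all genes tested. Its level was 5.19, 5.39 and 5.70 (lowest, median, highest) in the control rats and 6.28, 6.45 and 6.57 in the 1000 ppm rats. Every exposed rat lay above every control rat, as in 55 of all genes tested (0.259%). The difference was 0.99 ± 0.10 (SE) with an adjusted p of 1.66e-05 in limma, 1.07 in males and 0.91 in females. It stayed under 0.05 in each of the 12 fits that left out a rat (adjusted p up to 1.13e-04) and in the fit on the 12 arrays alone (0.00579), and with the slide as a block it was 1.18 with an adjusted p of 0.11.

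Tubb5, a widely expressed beta-tubulin, was also higher, by less. Its level ran from 2.91 to 3.01 with a median of 2.99 in control rats and from 3.24 to 3.48 with a median of 3.39 in exposed rats, again without overlap. The difference was 0.40 ± 0.07 (SE), below the 1.5-fold threshold, with an adjusted p of 0.039 in limma. That p passed 0.05 in 1 of the 12 fits that left out a rat, while the difference itself stayed between 0.38 and 0.43. With the slide as a block it was 0.52 with an adjusted p of 0.946.

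Of the 16 tubulins measured, 1 was called higher and 0 lower, 13 had a difference above 0 (51.3% of all genes did) and 5 had an unadjusted p under 0.05 (5.34% of all genes did so upward), with a median of 0.14 against 0.00 over all genes. The alpha-tubulins Tuba1a (0.35), Tuba1b (0.22) and Tuba1c (0.22), which pair with beta-tubulins in the microtubule dimer, were the other 3 of those 5. Tubb2a (-0.04), Tubb6 (-0.17) and the neuronal Tubb3 (0.26) did not pass it. The list mean lay between 0.95 and 1.08 in control rats and between 1.13 and 1.28 in exposed rats, so the groups did not overlap. That mean includes Tubb4b and Tubb5, which separated the groups on their own, and a mean without them was not computed. The median difference of the list was above 0 in all 5 scalings. Probes of such similar coding sequences may share signal, which was not tested.

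The acidic mammalian chitinases, secreted enzymes that cut the chitin of fungi, mites and insects and that rodent lungs make in large amounts, rose as a pair. Chial1 had levels of -2.57, -2.22 and -1.67 (lowest, median, highest) in control rats and of -1.23, -1.15 and -0.41 in exposed rats, without overlap. Its difference was 1.22 ± 0.19 (SE) with an adjusted p of 0.0181 in limma, 1.17 in males and 1.26 in females, and the adjusted p stayed under 0.05 in 8 of the 12 fits that left out a rat (range 0.00684 to 0.0796). Chia, which was far brighter, had levels of 3.07, 3.50 and 3.76 in control rats and of 4.16, 4.27 and 4.90 in exposed rats, also without overlap. Its difference was 0.96 ± 0.18 (SE), called with an adjusted p of 0.116. Both calls held in all 12 fits that left out a rat, and with the slide as a block the differences were 1.95 and 1.59, both called, with an adjusted p of 0.11 for Chial1.

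No other measured member of the family was called. Of 6 tested, 2 were called higher, 0 lower, 3 had an unadjusted p under 0.05 upward and 5 had a difference above 0, with a median of 0.20. Among all genes tested, 1.29% were called higher, 5.34% had such a p upward and 51.3% had a difference above 0. With the heart list as a covariate 2 of the 6 were called higher and the median was 0.07. Chi3l1, a chitin-binding protein without enzyme activity, differed by 0.26, Chit1, the macrophage chitinase, by -0.06 and the lysosomal Ctbs by 0.03. Chial1 and Chia are close relatives on the same chromosome, and whether their probes share signal was not tested.

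The last of the 4 adjusted results was the unnamed probe A_64_P138346, with levels of 2.17, 2.80 and 2.98 in control rats and 3.28, 3.50 and 3.64 in exposed rats. All exposed rats were above all control rats, and the difference was 0.78 ± 0.13 (SE) with an adjusted p of 0.039 in limma, which stayed under 0.05 in 2 of the 12 fits that left out a rat. With the slide as a block the difference was 0.98 with an adjusted p of 0.999.

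**Figure D2:**
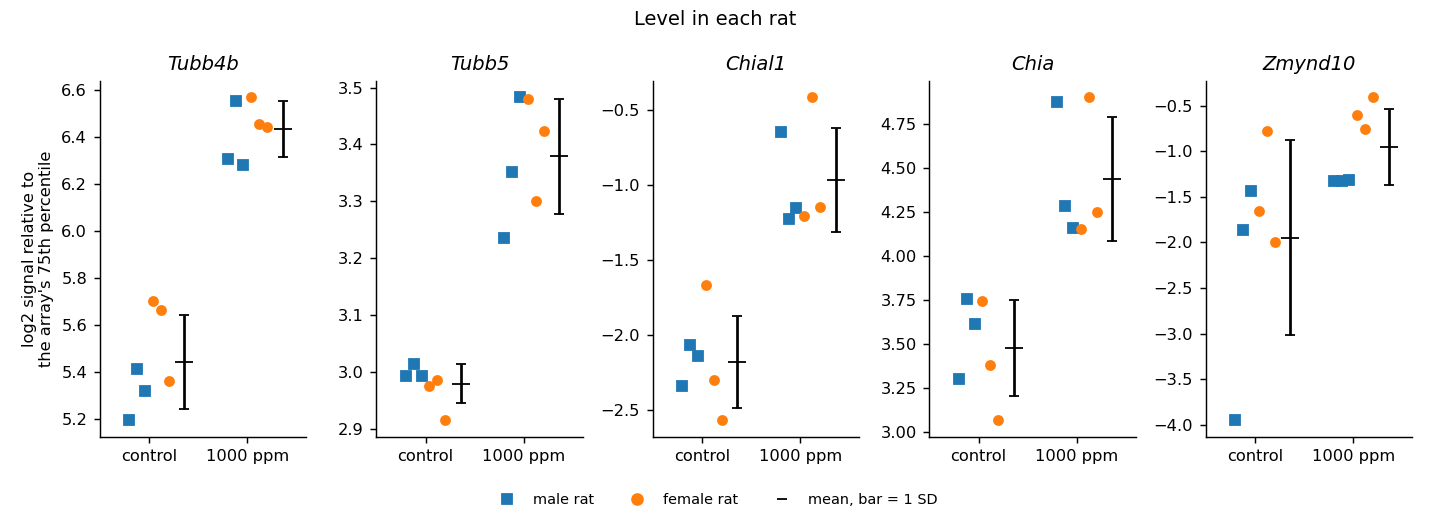
Level in each rat (log2 signal minus the array's 75th percentile) of Tubb4b, Tubb5, Chial1, Chia and Zmynd10, with males and females drawn apart and the mean and SD of each group. The exposed rats lie wholly above the control rats for the tubulin and chitinase genes, with medians of 5.39 against 6.45 for Tubb4b, and overlap for Zmynd10.

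Genes of the motile cilium were higher as a group. Of 17 measured members, 8 were called higher and 0 lower, 12 had an unadjusted p under 0.05 and 17 had a difference above 0, with a median of 0.56 against 0.00 over all genes. Among all genes tested, 1.29% were called higher, 5.34% had such a p upward and 51.3% had a difference above 0. Zmynd10, needed to assemble dynein arms before they enter the cilium, rose from a median of -1.76 (range -3.95 to -0.78) to -1.04 (range -1.32 to -0.41), a difference of 0.99 ± 0.36 (SE) with an adjusted p of 0.515 in limma. Ccdc40, which fixes the spacing of the axoneme, rose from -0.05 (range -0.34 to 0.90) to 0.94 (range 0.28 to 1.40), a difference of 0.80 ± 0.28 (SE). The groups overlapped for both. The remaining calls were the dynein chain Dnai2 (0.66), the dynein assembly factor Dnaaf1 (0.67), the dynein light chain Dynlrb2 (0.64), the radial spoke protein gene Ropn1l (0.62), Sntn (0.60), found at the cilium tip, and Cfap126 (0.60).

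Foxj1, the transcription factor that switches on the ciliary programme, differed by 0.45 and the dynein chain Dnai1 by 0.42, and neither was called. Zmynd10 and Ccdc40 kept their call in all 12 fits that left out a rat. The other 6 lost it in 4 to 7 of them, in each case including the fits without control rat 2, control rat 23, 1000 ppm rat 31 and 1000 ppm rat 33, and their differences in the fits that lost it were 0.47 to 0.62. The list mean was -0.47 to 0.59 with a median of -0.07 in control rats and 0.06 to 0.87 with a median of 0.51 in exposed rats, with the exposed females highest. With the slide as a block 0 of the 17 were called and the median was 0.47 (Zmynd10 0.69, Ccdc40 0.50), and with the heart list as a covariate 1 was called, Zmynd10 (0.90), 1 had an unadjusted p under 0.05 and the median was 0.33. The median was 0.26 in males and 0.89 in females, and it was above 0 in all 5 scalings. Across the 12 rats the list mean correlated at r = 0.76 with that of the airway secretory genes. Within the control and the exposed rats this r was 0.90 and 0.30. With the mean of the alveolar type II genes r was -0.58 (-0.48 and -0.67 within the groups), and these lists come from the same arrays.

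An X-box, the inverted repeat that RFX factors bind in many ciliary genes, was searched on both strands in 2 forms that can overlap each other, GTNNCC followed after 3 bases by GNAAC, and GTNNC followed after 3 bases by GGNAAC, N being any base. They occurred within 250 bases before the start in 1.69% and 1.72% of all promoters and in 1 and 2 of the 11 measured ciliary genes with a promoter, the genes being Zmynd10 and Tekt1 (difference 0.50, not called). Both windows are shown because they carry the match, in capitals, for Zmynd10 (plus strand, chr8:117098914-117099028) and Tekt1 (minus strand, chr10:57479122-57479220).
Zmynd10: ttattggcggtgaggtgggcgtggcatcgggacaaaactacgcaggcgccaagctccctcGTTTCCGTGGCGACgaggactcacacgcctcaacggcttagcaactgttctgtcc
Tekt1: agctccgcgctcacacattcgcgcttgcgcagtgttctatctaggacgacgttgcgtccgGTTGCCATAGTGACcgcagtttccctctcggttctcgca
Both matches lie on the opposite strand, so the capitals are the reverse complement of the searched form. As printed, the match began 55 bases before the start in Zmynd10 and 39 bases before it in Tekt1. The called genes Ccdc40 and Dnai2 held neither form within these bases.

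Airway secretory genes contained some of the largest rises, but none stayed called with the heart list as a covariate. Of 14 measured members, 5 were called higher (1.29% of all genes were) and 0 lower and 10 had a difference above 0 (51.3% of all genes did), with a median of 0.53. Scgb3a1, a secretoglobin of large airways, ranged from -3.16 to 2.35 with a median of 0.72 in control rats and from 0.45 to 4.30 with a median of 3.56 in exposed rats, a difference of 2.95 ± 1.27 (SE) and an adjusted p of 0.517 in limma. Bpifb1, an airway lipid-binding defence protein, had medians of -1.33 and 1.28 and a difference of 2.39 ± 0.82 (SE). The goblet cell genes Clca1 (2.56) and Agr2 (1.39) and the club cell monooxygenase gene Cyp2f4 (0.89) were the other calls. The groups overlapped for each of these genes.

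Scgb3a1, Bpifb1, Clca1 and Agr2 belonged to the heart-tracking genes. With the heart list as a covariate their differences were 0.68, 0.97, 0.82 and 0.63 and that of Cyp2f4 was 0.49. In that fit 0 of the 14 members were called and the list median was 0.37. Over the members that do not track heart muscle the median was 0.21 without the covariate. The list means of airway secretory and heart muscle genes correlated at r = 0.82 over the 12 rats (0.52 within control and 0.83 within exposed rats). Over the 12 rats of the other doses r was 0.76, as a description of lists read on the same arrays. Scgb1a1, the main club cell gene, differed by -0.03, and Scgb3a2, a secretoglobin of smaller airways, by 0.52 without a call. Bpifb1 and Agr2 kept their call in all 12 fits that left out a rat but not with the slide as a block (1.74 and 0.89), Cyp2f4 lost it without control rat 23 (0.64), Scgb3a1 lost it in 5 fits (2.32 to 2.74) and Clca1 in 4 (2.20 to 2.40), both including those without control rat 23, 1000 ppm rat 31 and 1000 ppm rat 33.

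Heart muscle genes gave the largest differences and the widest spread. Of 28 measured members of the list (36 genes), 16 were called higher (1.29% of all genes were) and 0 lower and 26 had a difference above 0 (51.3% of all genes did), with a median of 2.09. The mean of the list was -4.10, -2.99 and -0.69 (lowest, median, highest) in control rats and -2.63, -0.24 and 0.96 in exposed rats, and the groups overlapped. Control rat 1 (-0.69) and control rat 3 (-1.29) had more of these transcripts than the exposed rats 11 (-1.71) and 32 (-2.63). Myh6, the atrial myosin heavy chain, ranged from -8.30 to 3.46 in control rats and from -0.39 to 5.36 in exposed rats, a difference of 4.93 ± 2.52 (SE) with an adjusted p of 0.577 in limma. The troponin Tnnt2 differed by 2.48 ± 1.17 (SE), from a median of -0.59 to 2.89, and sarcolipin, Sln, a calcium pump regulator, by 3.67.

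With the mean of the list as a covariate the median difference was 0.00, as the construction of that covariate implies, and with the slide as a block it was 1.17. The median was 1.25 in males and 3.02 in females. None of the 16 calls held in all 12 fits that left out a rat. For Tnnt2, Mybpc3, Ckmt2, Tcap, Tnnc1, Smpx, Cox6a2 and Fabp3, 8 of the 12 fits lost the call, namely those without control rat 2, 21, 22 or 23 or 1000 ppm rat 12, 13, 31 or 33, with differences still between 1.39 and 3.82. Atrial natriuretic peptide, Nppa, was above background in 0 control and 3 exposed rats. The share of vein wall in each piece was not measured, and its part in these differences was not tested.

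The letters CTA and TAG with any 4 bases between them occurred within 250 bases before the start in 3.43% of all promoters. They occurred in 5 of 23 measured heart list members with a promoter (21.7%), namely Ckmt2, Cox6a2, Hspb7, Mybpc3 and Smpx. The site that MEF2 muscle factors bind has A or T at these 4 bases, so a match is not always such a site. The Ckmt2 match has GTGG there. Stretches with the match in capitals are shown for Ckmt2, the mitochondrial creatine kinase of striated muscle (minus strand, chr2:24845593-24845722), Cox6a2, a muscle subunit of cytochrome oxidase (minus strand, chr1:192219717-192219826), and Mybpc3, cardiac myosin-binding protein C (plus strand, chr3:97550892-97551021).
Ckmt2: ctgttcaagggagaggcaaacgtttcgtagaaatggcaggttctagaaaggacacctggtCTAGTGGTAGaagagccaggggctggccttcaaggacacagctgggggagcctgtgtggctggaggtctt
Cox6a2: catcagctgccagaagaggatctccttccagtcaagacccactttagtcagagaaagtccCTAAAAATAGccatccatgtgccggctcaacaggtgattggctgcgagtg
Mybpc3: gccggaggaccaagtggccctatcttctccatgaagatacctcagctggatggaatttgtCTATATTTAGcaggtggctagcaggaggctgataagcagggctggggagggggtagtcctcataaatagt
The match began 151, 50 and 109 bases before the start. The level differences of these genes were 3.70, 2.88 and 3.41, each called, and each gene was well above background in all 6 exposed rats. Mybpc3 was so in 3 of the 6 control rats, and its difference therefore rests partly on control signals near background.

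Skeletal muscle genes moved less. Of 16 measured members, 3 were called higher (1.29% of all genes were), with a median of 0.22 that turned to -0.16 after normexp. The calls were the actin gene Acta1 (0.90), the troponin Tnnc2 (1.13) and creatine kinase, Ckm (1.84). With the heart list as a covariate these were 0.54, 0.15 and 0.16, and 0 of the 16 were called. Acta1 kept its call in all 12 fits that left out a rat, and Tnnc2 and Ckm kept theirs in 7. The fast skeletal myosins were dim, with Myh4 well above background in 4 control rats and 1 exposed rat, Myh2 in 2 and 0, and Myh1 in 0 of both. Of 14 smooth muscle genes, 12 had a difference above 0, with a median of 0.23. Calponin, Cnn1, which holds smooth muscle actin, was called (0.60; 0.49 to 0.58 and not called in 7 of the 12 fits that left out a rat), while Tagln (0.34), Acta2 (0.33), Des (0.45) and Actg2 (0.46) had an unadjusted p under 0.05 below the 1.5-fold threshold.

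**Figure D3:**
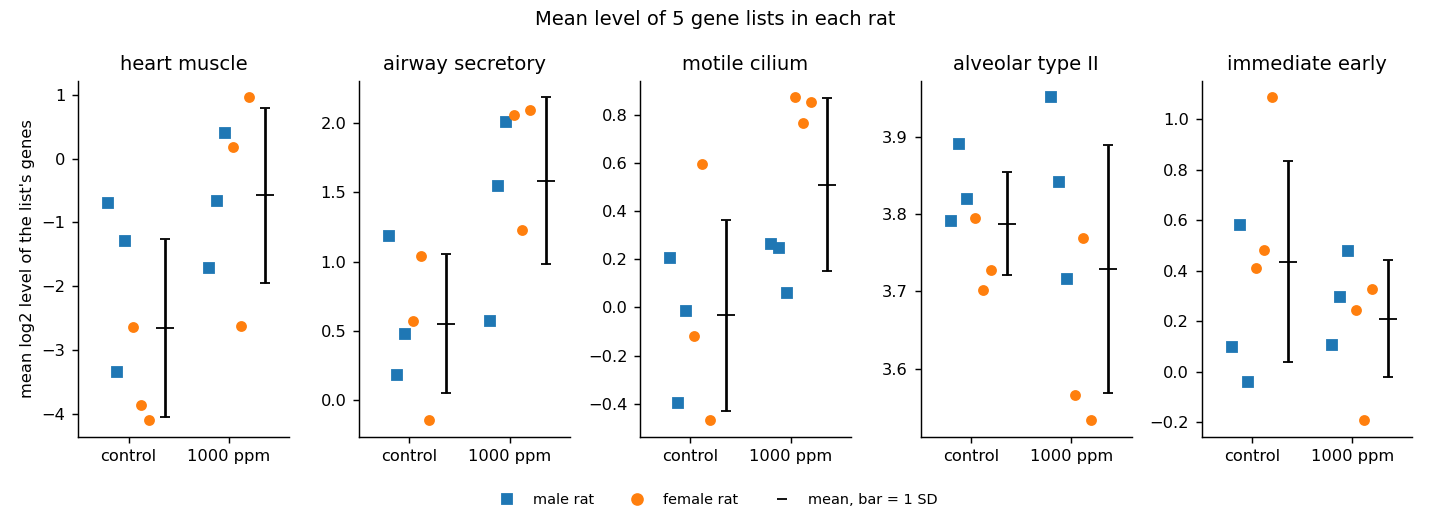
Mean log2 level of the heart muscle, airway secretory, motile cilium, alveolar type II and immediate early lists in each rat, with males as squares, females as circles, and the mean and SD of each group. The heart muscle mean spans -4.10 to -0.69 in control rats and -2.63 to 0.96 in exposed rats, and every list overlaps between the groups.

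Among the 12 rises named outside the heart-tracking genes, that of Itln1, intelectin, a mucus lectin that binds microbial sugars, was the largest. It rose from a median of -3.75 (range -8.75 to -1.27) to -1.37 (range -3.59 to 0.32), a difference of 2.46 ± 1.13 (SE) with an adjusted p of 0.539 in limma. The protease inhibitor gene Serpina3n, an acute-phase gene in rodents, was at -2.85 (median) in control rats and 0.67 in exposed rats, a difference of 2.07 ± 0.84 (SE). Control rat 2 (0.05) and 1000 ppm rats 12, 13, 32 and 33 (0.43 or more) were high, and the other 7 rats lay between -3.14 and -2.76. The complement gene C9, whose product forms the membrane pore, differed by 1.61 ± 0.57 (SE), with medians of -4.04 and -2.66 and overlapping groups.

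Retn, the hormone resistin that rodent fat secretes, was higher in each exposed rat (-4.57 to -0.68) than in any control rat (-5.64 to -4.72), with a difference of 1.66 ± 0.74 (SE). Its highest level was in 1000 ppm rat 13, which also had the highest level of the fat hormone gene Adipoq (-0.48) and of the brown fat gene Ucp1 (-1.21). Adipoq itself differed by 2.66 ± 1.25 (SE), being well above background in 3 control and 6 exposed rats. Without rat 13 the Retn difference was 1.13 and was not called, and the part of fat tissue in the piece was not tested.

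The other rises by the same rule were Scg2 (1.5), Pi16 (1.38), Got1l1 (1.32), the metalloreductase gene Steap1 (1.31), Lyzl4 (1.22), the netrin gene Ntn5 (1.22) and the protease gene Prss35 (1.21). C9, Got1l1, Steap1, Lyzl4, Ntn5 and Chial1 kept their call in all 12 fits that left out a rat, and with the slide as a block Steap1 and Chial1 did so, while C9 (1.39), Got1l1 (0.88), Lyzl4 (0.69) and Ntn5 (1.03) did not. C9, Got1l1 and Lyzl4 also lost it after normexp (0.88, 0.28 and 0.68). Itln1, Serpina3n, Retn, Scg2, Pi16 and Prss35 did not, losing it in 6, 3, 5, 6, 3 and 7 fits, each time including the one without 1000 ppm rat 13, and the lowest differences among those fits were 1.48, 1.78, 1.13, 0.93, 1.05 and 0.79. Steap1 and Ntn5 were dim (medians of -5.80 and -6.27 in control rats) and turned to -0.02 and -0.10 after normexp.

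Among the falls, Ly49i5, a receptor of natural killer cells, had the largest fall, with medians of -4.28 in control and -6.31 in exposed rats and a difference of -1.58 ± 0.54 (SE) and an adjusted p of 0.515 in limma. Control rats 2 and 3 (-6.76 and -6.39) were as low as the exposed rats, and with the slide as a block the difference was -0.33. Rtp3, which helps receptors reach the cell surface, fell by 0.84 on the log2 scale with the smallest p of this set (adjusted p 0.364), from levels of -1.78 to -1.01 down to -2.83 to -1.87, so that all exposed rats lay below all control rats, as in 42 of all genes tested (0.198%). Its difference was -0.83 in males, -0.86 in females and -0.99 with the slide as a block.

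Other falls were those of Aoc1, the enzyme that breaks down histamine (-1.03), the retinol transport gene Stra6l (-0.90), Nrn1 (-0.89), epiregulin, Ereg, a growth factor for the EGF receptor (-0.89), Apoa1, the main protein of high-density lipoprotein (-0.84), Dusp9, a phosphatase of MAP kinases (-0.79), and Slitrk6 (-0.78). With the slide as a block, Aoc1 and Apoa1 turned to 0.29 and 0.34. Of the 12 falls, Stra6l, Nrn1 and Ereg lost their call in 4, 2 and 7 of the fits that left out a rat (with differences of -0.68, -0.70 and -0.59 nearest to 0), and the other 9 kept it in all. With the slide as a block Rtp3, Ddit4, Cebpd and Klf2 kept it, and Dusp9 (-0.78) and Slitrk6 (-0.47) were among the 8 that did not.

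**Figure D4:**
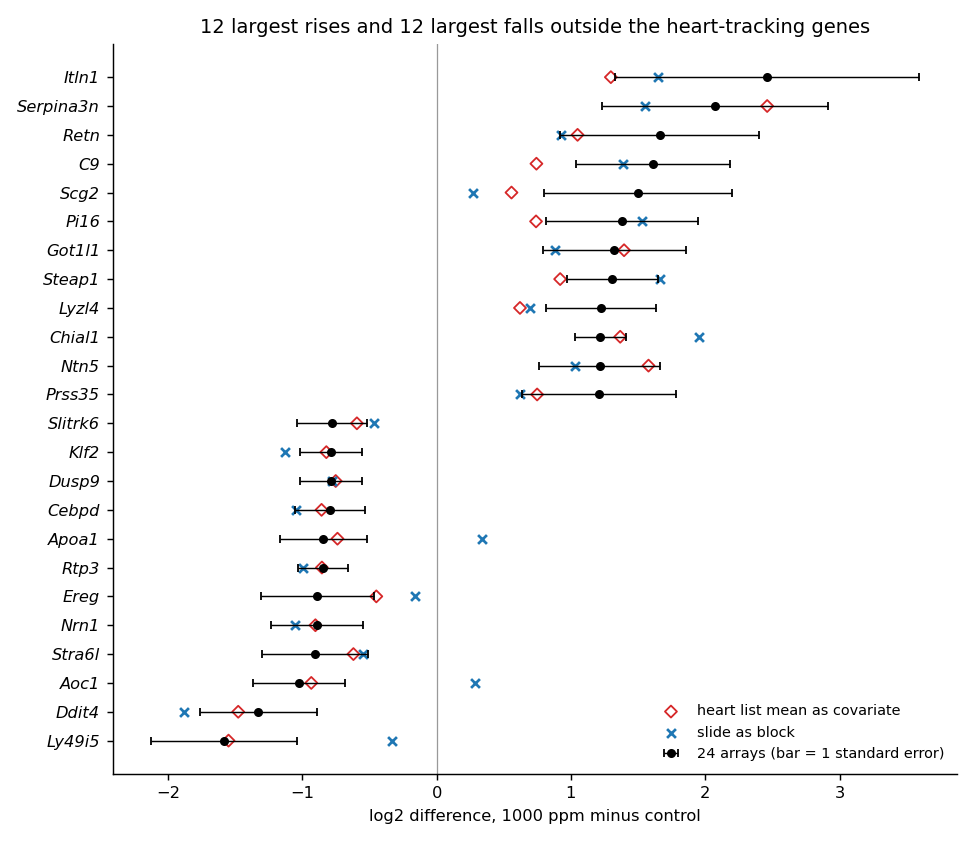
The 12 largest rises and 12 largest falls outside the heart-tracking genes, as log2 difference (1000 ppm minus control) with its standard error from the 24 arrays (filled circles), with the slide as a block (crosses) and with the heart list mean as a covariate (diamonds). The values run from 2.46 for Itln1 to -1.58 for Ly49i5, and the crosses of Aoc1 and Apoa1 lie on the other side of 0.

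Of the immediate early and glucocorticoid-responsive genes, those called were all lower at 1000 ppm. Of 32 measured immediate early genes, which are switched on within minutes of a stimulus, 4 had a difference above 0, 0 were called higher and 3 lower, and 7 had an unadjusted p under 0.05, all downward, with a median of -0.18 against 0.00 over all genes. Among all genes tested, 51.3% had a difference above 0, 0.343% were called lower and 3.65% had such a p downward. Klf2, a factor of quiescent endothelium, fell from a median of 0.50 (range -0.48 to 1.06) to -0.22 (range -0.88 to -0.11), a difference of -0.79 ± 0.23 (SE) with an adjusted p of 0.515 in limma. Jun fell by 0.62 and Sik1 by 0.65 on the log2 scale, while Fos (-0.76 ± 0.68) and Egr1 (-0.36 ± 0.60) varied too much between rats to be called. The groups overlapped for all of them. The median was 0.16 in males (19 of 32 above 0) and -0.53 in females (1 of 32 above 0), stayed below 0 in all 5 scalings over both sexes and reached -0.42 once the slide was a block. Klf2 kept its call in all 12 fits that left out a rat, Jun lost it in 3 (-0.58 to -0.47) and Sik1 in 2 (-0.50 and -0.49), both including the fits without control rat 2 and control rat 23.

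Of 18 glucocorticoid-responsive genes, 2 were called lower and 0 higher, with a median of -0.04 that was 0.06 in the unscaled table and 0.06 in males. Ddit4, an inhibitor of mTORC1 that stress hormones and low oxygen raise, fell from a median of 2.06 (range 0.25 to 3.60) to 0.61 (range -0.11 to 1.41), a difference of -1.33 ± 0.43 (SE), and a second, dimmer probe of it gave -1.36. Cebpd, a factor of the acute phase, fell from a median of 3.98 to 3.06, a difference of -0.79 ± 0.26 (SE). The males carried most of both, with differences of -2.16 against -0.49 for Ddit4 and of -1.18 against -0.40 for Cebpd, and the sex difference was not called for either. The control males had Ddit4 levels of 3.60, 2.79 and 2.05, and the exposed males 0.66, 1.41 and -0.11. Both calls held in all 12 fits that left out a rat, and that of Ddit4 was lost with array weights.

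Of 18 clock genes, 1 was called, Nr1d1, the nuclear receptor REV-ERB alpha that peaks once a day (1.28 ± 0.56 SE). It was at -4.71 to -2.57 in the control males and at -0.94 to -0.29 in the control females, while the exposed rats lay between -1.29 and 0.37, so the difference was 2.74 in males and -0.18 in females (adjusted p of the sex difference 0.215 in limma). Leaving out any 1 of the 3 control males, or 1000 ppm rat 13, 31 or 32, ended the call (0.74 to 1.25). Dbp (0.77) and Bmal1 (-0.32) were not called. The hour of tissue collection is not given in the sources used here, and its part in these values was not tested. Nfkbia, the inhibitor that NF-kB itself induces, was the only call of 22 NF-kB genes (-0.63 ± 0.24 SE), it lost the call without control rat 1 or 2 or 1000 ppm rat 31 or 33 (-0.58 to -0.46), and 12 of the 22 had a difference above 0.

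No aldehyde dehydrogenase or reductase was called. Of 16 aldehyde dehydrogenases, 13 had a difference above 0 (51.3% of all genes did) and 3 had an unadjusted p under 0.05 (5.34% of all genes did so upward), with a median of 0.14 (0.20 with the slide as a block). Aldh1a1, a cytosolic form of airway and alveolar cells, had levels of 4.34 to 5.19 with a median of 4.93 in control rats and of 4.85 to 5.52 with a median of 5.31 in exposed rats, a difference of 0.36 ± 0.16 (SE). Aldh3b1, which acts on medium and long chain aldehydes, differed by 0.37 ± 0.14 (SE), and Aldh3a1 by 0.37 ± 0.19 (SE) without an unadjusted p under 0.05. Aldh2, the main mitochondrial form, differed by 0.04. Of 16 aldo-keto reductases and alcohol dehydrogenases, 11 had a difference above 0, with a median of 0.08, and with the slide as a block 7 had, with a median of -0.02. Akr7a2 had the smallest p of them, at 0.29 ± 0.07 (SE) and an adjusted p of 0.495 in limma.

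Of 22 glutathione S-transferases, 2 were called higher and 0 lower, 18 had a difference above 0 and 5 had an unadjusted p under 0.05, with a median of 0.16 that stayed above 0 in all 5 scalings (with slide as a block 0.07, and 12 of 22 above 0). Among all genes tested, 1.29% were called higher, 51.3% had a difference above 0 and 5.34% had such a p upward. Gstm1, a mu-class enzyme, rose from a median of 0.84 (range 0.54 to 1.44) to 1.57 (range 1.16 to 1.88), a difference of 0.61 ± 0.21 (SE), and Ltc4s, which makes leukotriene C4, differed by 0.62 ± 0.26 (SE). They lost the call in 5 (0.53 to 0.56) and 4 (0.44 to 0.57) of the 12 fits that left out a rat, Gstm1 without control rat 2, 21 or 23 or 1000 ppm rat 31 or 33 and Ltc4s without control rat 22 or 1000 ppm rat 12, 13 or 32. Of 32 Nrf2 and antioxidant genes none was called, and Hmox1 (-0.05) and Nqo1 (-0.01), usual reporters of the pathway, were close to 0. The median of that list was 0.05, and Osgin1 (0.50 ± 0.19 SE) was the single member with an unadjusted p under 0.05. Of 25 cytochrome P450 and monooxygenase genes, Cyp2f4 and the dim Cyp4f4 (1.14 ± 0.51 SE) were called, with a median of 0.02. Cyp4f4 turned to -0.18 after normexp and lost its call in 5 of the 12 fits that left out a rat (0.89 to 1.09).

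Alveolar and vascular genes were not called. Of 14 alveolar type II genes, 3 had a difference above 0, with a range of -0.38 to 0.07, a median of -0.05 and Sftpc at -0.05 ± 0.11 (SE), and the sign of that median changed under normexp (0.00) and in the unscaled table (0.06). Of 11 alveolar type I genes, 9 had a difference above 0, with a median of 0.03. Of 18 endothelial genes, 4 had a difference above 0 and 2 had an unadjusted p under 0.05, both downward, with a median of -0.14 that was -0.01 with the slide as a block. Tek, the angiopoietin receptor, was at -0.25 ± 0.11 (SE), Cdh5, the junction cadherin, at -0.24 ± 0.16 (SE) and Pecam1 at -0.07 ± 0.12 (SE).

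Among immune genes, 2 of 30 chemokines, 2 of 14 type 2 immunity genes and 1 of 10 neutrophil genes were called higher, beside 1.29% of all genes. Of the chemokines, Ccl11, eotaxin, which draws eosinophils, rose from a median of 0.55 (range -0.87 to 1.39) to 1.67 (range 0.69 to 1.85), a difference of 1.00 ± 0.39 (SE), and Ccl12, a monocyte attractant, by 1.18 ± 0.31 (SE) from -4.52 to -3.56. Ccl12 kept its call in all 12 fits that left out a rat and with the slide as a block (1.68), but not after normexp (0.51), and Ccl11 lost it without control rat 23 (0.73) and with the slide as a block (0.49). Of the type 2 immunity genes, Itln1 and Il25 (0.81 ± 0.33 SE) were called. Il25 was well above background in 3 control and 5 exposed rats and turned to -0.46 after normexp. The neutrophil protein gene S100a8 was called (0.71 ± 0.34 SE) among the neutrophil genes, with a median of 0.18, and lost the call without control rat 1, 3 or 22 or 1000 ppm rat 11, 12 or 13 (0.52 to 0.73).

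Tnfrsf17, the survival receptor of plasma cells, was called among 16 B lineage genes (0.82 ± 0.25 SE, from a median of -4.21 to -3.34), and the complement inhibitor Cfi among 32 complement and coagulation genes. Cfi rose from a median of -1.04 (range -1.71 to -0.25) to -0.05 (range -0.26 to 0.45), a difference of 1.00 ± 0.29 (SE), with only control rat 22 reaching the range of the exposed rats. Both calls held in all 12 fits that left out a rat but were lost with the slide as a block (0.67 for Tnfrsf17 and 0.92 for Cfi), and that of Tnfrsf17 also after normexp (0.21). Of 33 natural killer and cytotoxic genes, 12 had a difference above 0 and Ly49i5 was the only call, with a median of -0.12 that was -0.03 with the slide as a block. No gene was called among 19 macrophage, 12 mast cell, 21 T cell, 10 MHC class II and 36 interferon-stimulated genes, with medians between -0.11 and 0.02. Ifitm1, an antiviral membrane protein gene, had the smallest p of the interferon list (0.50 ± 0.14 SE).

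In the matrix, growth and stress lists the calls were Timp4 and Hspa4l. No gene was called among 38 matrix and TGF-beta genes (median -0.02), 40 cell cycle genes (median -0.14, 13 above 0), 23 p53 genes (median -0.02), 26 ER stress genes (median 0.03) and 34 hypoxia and glycolysis genes (median 0.07). Col1a1, the main fibrillar collagen, differed by -0.02 and the proliferation marker Mki67 by -0.15. Timp4, an inhibitor of matrix proteases that tracks heart muscle, was the only call of 18 (0.61), and Hspa4l, a co-chaperone, the only call of 20 heat shock genes (0.62 ± 0.24 SE, list median 0.11). Timp4 lost the call in 3 of the 12 fits that left out a rat (0.50 to 0.56) and Hspa4l in 4 (0.49 to 0.58). Tgfb3 (0.34), Mmp11 (0.26), Trib3 (0.51) and Gadd45a (-0.26) had an unadjusted p under 0.05 below the 1.5-fold threshold.

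Most genes of oxidative phosphorylation had small differences above 0. Of 68 measured subunits, none was called, 66 had a difference above 0 (51.3% of all genes did) and 33 had an unadjusted p under 0.05 (5.34% of all genes did so upward), with a range of -0.01 to 0.26 and a median of 0.14. Their mean was 3.00 to 3.16 with a median of 3.06 in control rats and 3.13 to 3.28 with a median of 3.20 in exposed rats, so the groups overlapped. Cox6b1, a subunit of cytochrome oxidase, had the smallest p, with 2.40 to 2.70 in control rats, 2.65 to 2.91 in exposed rats and a difference of 0.25 ± 0.06 (SE). Heart muscle is rich in these transcripts, and the means of both lists correlated at r = 0.90 over the 12 rats. Within the control and the exposed rats this r was 0.99 and 0.63, and over the 12 rats of the other doses it was 0.33. With the heart list as a covariate, 60 of the 68 were above 0, 16 had an unadjusted p under 0.05 (4.51% of all genes did so upward) and the median was 0.11, and with the slide as a block 64 were above 0 with a median of 0.10. The 72 ribosomal protein genes, by comparison, had 43 above 0 and a median of 0.01.

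The remaining lists were those of lipid metabolism, transport, red cells and DNA methylation. Fatty acid oxidation had 2 higher calls of 37, Cpt1b (0.76) and Fabp3 (2.69), both muscle forms that track heart muscle. No gene was called among 35 cholesterol and fatty acid synthesis genes (median 0.07), where Sqle, a rate-limiting enzyme of cholesterol synthesis, differed by 0.45 ± 0.13 (SE), or among 28 ion transport genes (median 0.10). The zinc transporter gene Slc39a5 was called (0.71 ± 0.30 SE, and 0.56 and not called without 1000 ppm rat 11) among 21 zinc and metallothionein genes, and Slc39a14, another one, was at -0.47 ± 0.13 (SE). Of 16 erythroid genes, 2 had a difference above 0, with a median of -0.20 and no call, and Hbb, the beta-globin, was at -0.03. Of the 10 measured genes that write, read or erase DNA methylation, 1 had a difference above 0, with a median of -0.06 and no call, and Dnmt3a, a methyltransferase, was at -0.20 ± 0.13 (SE).

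**Figure D5:**
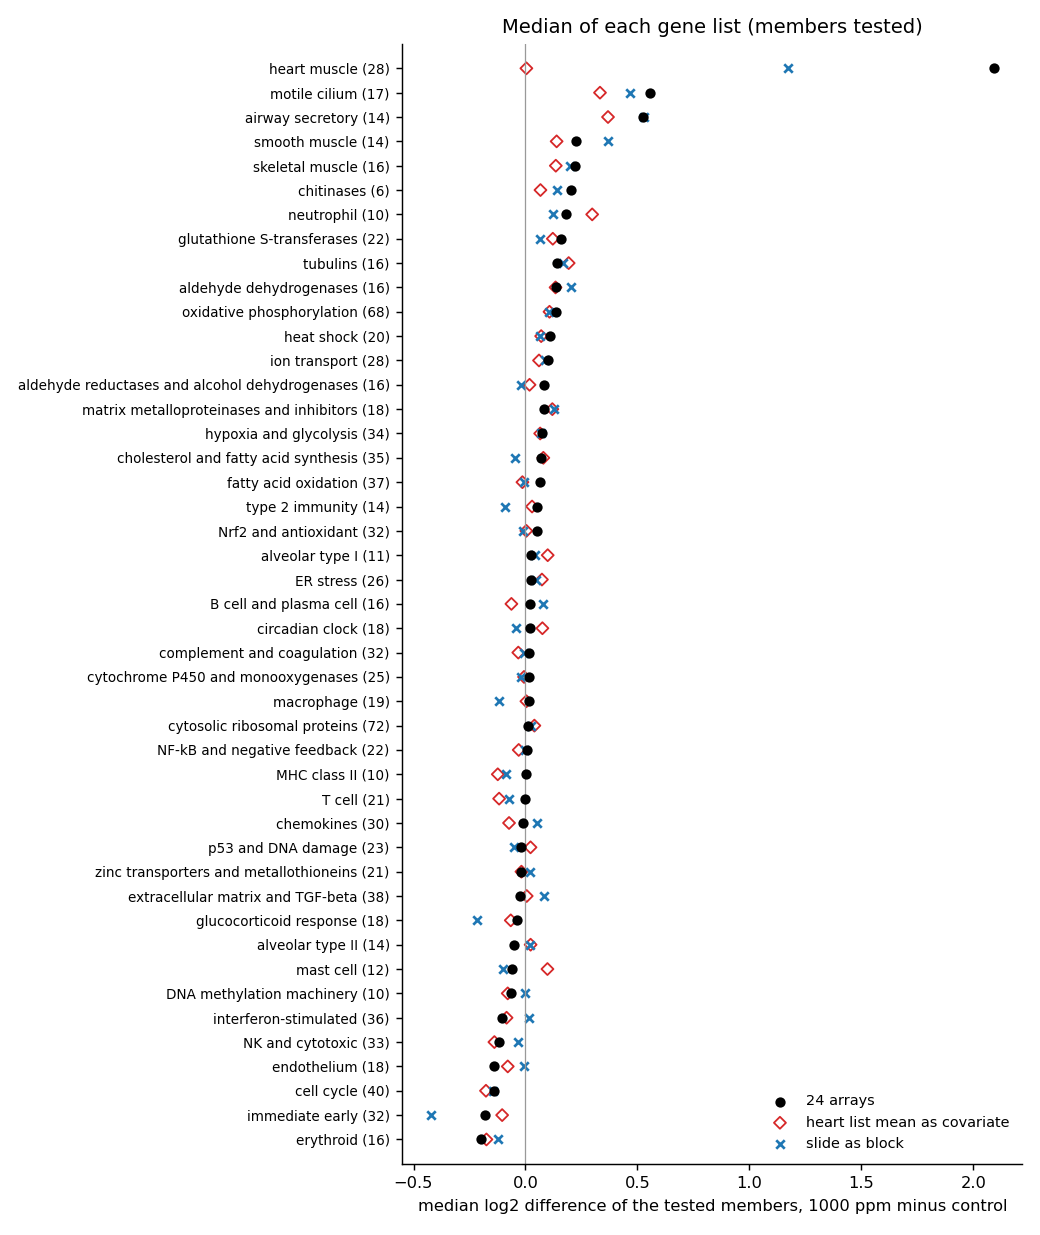
Median log2 difference (1000 ppm minus control) of each of the 45 gene lists, with the values for the 24-array fit, the slide as a block and the heart list as a covariate, beside the median of all genes at 0.00. Heart muscle stands apart at 2.09 and returns to 0.00 with its own mean as a covariate, followed by motile cilium at 0.56 and airway secretory genes at 0.53.

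Both sexes moved the same way in 346 of the 348 called genes, which is partly fixed by the call itself because it averages the sexes. The difference of the effect between the sexes passed an adjusted p of 0.05 in 0 of 21255 genes in limma, with an unadjusted p under 0.05 in 2001 (9.41%). The lists with the largest gaps between the male and female medians were heart muscle (1.25 and 3.02), immediate early (0.16 and -0.53) and motile cilium (0.26 and 0.89), and these gaps were not tested. Of the 77 called genes named by the rule, 26 kept their call in all 12 fits that left out a rat. Of these, 8 kept it also in each of 3 other fits, after normexp, with the slide as a block and with the heart list as a covariate. They were Tubb4b, Chial1, Chia, probe A_64_P138346, Ddit4, Cebpd, Klf2 and Rtp3. Other alternatives did not enter this count, and Ddit4 lost its call in the fit with array weights.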

How the data were processed

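Total RNA of whole lung was labelled with Cy3 and hybridised to one-colour Agilent rat arrays, one per rat. The authors deposited, per the file headers, intensity values from Agilent Feature Extraction 11.5.1.1 (processed signal, background-subtracted and detrended within each array), not scaled between arrays, and a table of the same values. Columns of other samples numbered 0. The array was designed on an older rat build, so probes were named by accession through a gene table of GRCr8, and no probe coordinates are given. Of 42877 spots that are not controls, 30367 probes remained after averaging, of which 18355 were named (15443 symbols).

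The log2 processed signal minus the array's 75th percentile was tested for the 23616 probes that stood well above background on 5 or 6 arrays of some group, taking the brightest probe of a gene (21255 genes or unnamed probes, 12499 with a symbol). Values are averages over 6 rats per group, and the number of arrays limits the precision. Nothing says how many RNA extractions a rat had, so p-values measure the spread between these arrays. Fits used lmFit and eBayes of limma 3.58.1 in R 4.3.3 on all 24 arrays, with the contrast of 1000 ppm minus control. The fits were tested on simulated data. Named genes were those with an adjusted p under 0.05, the 12 largest rises and 12 largest falls that moved alike in both sexes, the brightest heart list members, and of each list the first 3 tested, all called and the one with the smallest p (229 genes). Genes named outside this rule were chosen after their values were seen. Rats are named by the numbers in their titles. The members, the 45 lists and these choices were made with earlier results of these data known.

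Promoters (250 bases before each start, 27457 in all, 174 of the 229 named genes) came from RefSeq. Alternatives were normexp (offset 50, on median signals), quantile and median scaling, that table unscaled, other filters, each probe counted, the 12 arrays alone, sex, slide or the heart list mean as terms, array weights, the methods' t-test and leaving out each rat. The slide as a random block and the exclusion of heart-tracking genes were added after seeing the data. The methylation arrays of the study are not analysed here.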

Additional observations from a re-analysis of the deposited data

Results flagged for a closer look

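A rat far from the other 5 of its group was looked for in 154 groups of rats, and 7 were found, where chance gives about 1 in 20. Control rat 2 stood above the other control rats in Serpina3n (0.05 against -2.82 for the next, a gap of 0.899 of the group's range), in Gja5, the connexin of atrial muscle and arteries (2.61 against 2.24, gap 0.669), and in the mean of the DNA methylation genes (-0.95 against -1.18, gap 0.69). Control rat 21 was low in Itln1 (-8.75 against -4.05, gap 0.629) and control rat 3 in Retn (-5.64 against -5.04, gap 0.647). Among the exposed rats, rat 12 was high in Ntn5 (-2.76 against -4.91, gap 0.703) and low in the mean of the natural killer and cytotoxic genes (-3.10 against -2.77, gap 0.671). Their causes were not tested.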

How the results depend on the processing

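The count of higher calls (275) was 73 after normexp, 539 in the unscaled table, 182 with probes well above background on all 24 arrays and 159 with the heart list as a covariate, and 147 to 410 when each rat was left out. The count of lower calls (73) was 328, 113 and 30 after normexp, quantile normalization and in the unscaled table, 183 without a filter, 43 with the filter on all 24 arrays, 134 with the slide as a block, 156 with array weights and 47 by the methods' t-test, and 50 to 162 when each rat was left out. The 4 genes with an adjusted p under 0.05 became 2 after normexp, quantile or median scaling, without a filter, with the heart list as a covariate, by the methods' t-test and with the slide as a random block (consensus correlation 0.287, chosen after seeing the data), 1 with the 12 arrays alone, 0 with the slide as a block, and 1 to 4 when each rat was left out. The 0 genes that differed between the sexes became 3 with the slide as a block and 0 to 4 when each rat was left out (4 without 1000 ppm rat 11). Differences that changed sign and were called before or after were those of Steap1 (-0.023), Ntn5 (-0.10), Nkx2-5 (-0.085), Cyp4f4 (-0.18) and Il25 (-0.46) after normexp, of Aoc1 (0.29), Apoa1 (0.34) and Cpt1a (-0.73) with the slide as a block, and of Tnnt2 (-0.092), Mybpc3 (-0.13), Ckmt2 (-0.063), Tnnc1 (-0.012) and Cox6a2 (-0.15) with the heart list as a covariate, where Myl7 (-0.33) and Myh6 (-0.29) also changed sign without a call in either fit. The cause was not tested, except that the heart covariate is built from those genes and that fewer rats and fewer probes enter some fits. Of the 229 named genes, quantile and median scaling kept the side of the threshold for 226 and 229 and the slide as a block for 162. The direction of dim probes followed the background correction, so signals near background leave it unsettled. No paired analysis was possible because no rat number is shared between the groups.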

Other observations

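Some genes outside the lists separated the groups without overlap, as did 55 of all genes tested upward (0.259%) and 42 downward (0.198%), and those named here were chosen after their values were seen. Cldn4, a tight junction claudin of epithelia, was at -1.64 ± 0.26 in control rats and -0.97 ± 0.17 in exposed rats (mean ± SD, n = 6 each), a difference of 0.66 ± 0.18 (SE) that was 0.68 in males, 0.65 in females and 0.70 with the slide as a block. Fpr2l1, a formyl peptide receptor gene, differed by 1.11 ± 0.25 (SE) from a dim -4.24, and Idi2, an isomerase of isoprenoid synthesis, by 1.46 ± 0.36 (SE) from -6.92. Dcxr, a reductase of dicarbonyl compounds and L-xylulose, differed by 0.34 ± 0.08 (SE), nearly the same in males (0.33) and females (0.34). The mitochondrial genes Atp5mg, Mrpl23 and Mrpl36 differed by 0.19, 0.20 and 0.20. Among those below, Depdc1b was at -0.59 ± 0.13 (SE), the kinase gene Map4k4 at -0.29 and Mtss1 at -0.23.

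Of the genes well above background on at least 5 of the 6 arrays of 1 group and on no array of the other, 3 were in the exposed rats and 1 in the control rats. They came from a search of 30367 probes. Because they were chosen by that detection, the direction of their differences follows from the choice, and their signals lay near background. The olfactory receptor gene Or12j2 was at least 1.33-fold higher and Or2ak5e at least 1.21-fold higher in exposed rats, with 5 of the 6 exposed arrays above background for each, and adjusted p of 0.66 and 0.709 in limma. Unnamed probe A_64_P038839 was at least 1.43-fold higher and A_64_P022660 at least 1.83-fold lower. These are bounds, the bright group's mean set against the higher of the lowest signal well above background and the dim probe's own. Krt13, a keratin of squamous epithelium, was well above background in 3 control and 6 exposed rats and differed by 1.18.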
